A study of Mus musculus with 2 samples.

Results

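The genes described are 10 genes of the antioxidant defence of mouse cells, among them the transcription factor NRF2 (Nfe2l2) and genes it is known to induce. They are Nfe2l2, Nqo1, Gclm, Gclc, Srxn1, Txnrd1, Prdx1, Slc7a11, Gpx4 and Sod2, chosen by symbol, and all 10 were found among the 32285 genes listed in the deposited tables. Their RNA was counted as unique molecular identifiers (UMIs, one tag per captured RNA molecule) in single cells of pancreatic tumours from KPPC mice, a genetically engineered model of pancreatic ductal carcinoma. The labels do not spell out the alleles behind the name KPPC, the promoter that drives their recombination or the number of mice behind a library, and they carry the word pancreas in the field for a cell line although the protocol describes fresh tumours. Mice were 6 weeks old. They received vehicle or takinib, a small-molecule inhibitor of the kinase TAK1, at 50 mg/kg for 14 days, and 1 library was made from each group. The design poses 1 question, how the level of these genes differed between the takinib and the vehicle library within each type of cell.

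NRF2 is normally bound by KEAP1 and degraded, and it accumulates when reactive compounds modify KEAP1. It then pairs with small MAF proteins on antioxidant response elements and raises the genes for glutathione synthesis, for the thioredoxin system and for the reduction of quinones. In pancreatic tumours, the import of cystine through SLC7A11 and the removal of lipid peroxides by GPX4 protect cells from ferroptosis. SOD2, the superoxide dismutase of mitochondria, is known mainly as a target of NF-kB, the pathway downstream of TAK1, and of inflammatory cytokines.

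Promoter sequence of 9 of the 10 genes was matched by symbol in a RefSeq table of build GRCm38.p6, in 14 windows of 250 bases before a transcription start. The core of the antioxidant response element, written TGACNNNGC and searched on both strands, was found in 4 windows (28.6%), against 10.2% of 32851 promoter windows of all genes. It lay in windows of Nfe2l2, Gclm, Txnrd1 and Prdx1, and other spellings of the element were not searched. The AP-1 type motif TGANTCA was found in 2 windows, of Prdx1 and Srxn1 (14.3%), against 6.75% of all windows. The match in Prdx1 overlaps a match to TGANTCA. These are matches of letters and not binding sites. A pair of promoters with a match is printed to show it, and those of Slc7a11 and Sod2, the genes with the largest differences between the libraries, hold neither motif within these bases. Capitals mark the TGACNNNGC match, which in both cases lies on the opposite strand. The windows are, 5′ to 3′ along each gene, Gclm at chr3:122245307-122245556 (plus strand), Prdx1 at chr4:116685349-116685598 (plus strand), Slc7a11 at chr3:50443614-50443863 (minus strand) and Sod2 at chr17:13007589-13007838 (plus strand).
Gclm: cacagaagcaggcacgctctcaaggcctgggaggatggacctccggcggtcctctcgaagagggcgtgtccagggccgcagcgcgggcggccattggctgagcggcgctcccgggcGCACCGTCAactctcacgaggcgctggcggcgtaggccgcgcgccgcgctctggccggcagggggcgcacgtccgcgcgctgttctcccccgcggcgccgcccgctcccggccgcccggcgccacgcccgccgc
Prdx1: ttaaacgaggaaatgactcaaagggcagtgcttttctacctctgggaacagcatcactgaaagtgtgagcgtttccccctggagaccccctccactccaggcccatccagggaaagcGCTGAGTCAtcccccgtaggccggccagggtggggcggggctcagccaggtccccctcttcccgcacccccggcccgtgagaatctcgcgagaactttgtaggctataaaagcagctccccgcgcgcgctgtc
Slc7a11: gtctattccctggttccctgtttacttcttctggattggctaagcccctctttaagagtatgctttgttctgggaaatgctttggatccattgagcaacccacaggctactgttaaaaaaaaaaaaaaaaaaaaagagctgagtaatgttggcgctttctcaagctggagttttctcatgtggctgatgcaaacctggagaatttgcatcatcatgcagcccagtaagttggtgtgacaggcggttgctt
Sod2: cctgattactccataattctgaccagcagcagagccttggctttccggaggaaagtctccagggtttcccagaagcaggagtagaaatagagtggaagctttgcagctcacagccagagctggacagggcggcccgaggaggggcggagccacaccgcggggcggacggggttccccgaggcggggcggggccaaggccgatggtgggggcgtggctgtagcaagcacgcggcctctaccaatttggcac

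Barcodes needed 1000 or more UMIs, 500 or more genes and a mitochondrial share of 20% or less. With likely doublets removed, this left 9558 vehicle and 25183 takinib cells with a median of 3556 and 2887 UMIs. Clusters were named "-like" from marker genes, and 7 classes had at least 100 cells in each library. They were macrophage-like (4688 vehicle and 3681 takinib cells), epithelial-like (1689 and 1906), neutrophil-like (270 and 12043), monocyte-like (133 and 1012), B-like (244 and 1383), T-like (252 and 1263) and endothelial-like cells (709 and 101). The libraries stand apart in more than treatment. The median mitochondrial share was 8.7% in vehicle and 1.79% in takinib. In takinib 14324 cells carried UMIs of Xist and no cell a Y-linked UMI, whereas 1075 vehicle cells carried only Xist and 3087 only Y-linked UMIs. RNA of neutrophils was more common in every other class of takinib: the summed S100a8 and S100a9 level was 9810 counts per 1000000 UMIs (CPM) in takinib epithelial-like cells against 95.6 in vehicle, and 34800 against 588 in B-like cells. All 9 neutrophil markers had counts in each compared takinib class. Treatment, sex, depth and library therefore cannot be told apart. A total of 400 cell barcodes passed the filters in both libraries, where 375 would be expected if both sets were drawn at random from the barcodes listed.

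Each level is the sum of a gene's UMIs over the cells of a class in a library, in CPM of that class and library, with an exact Poisson 95% interval where brackets follow a level. Each ratio is the log2 ratio between the takinib and the vehicle level after 10 CPM was added to both, with a 95% counting interval in brackets. The added 10 CPM makes the ratio of weakly expressed genes too small. With 1 library in each group no difference below has a replicate check, no p-value is given, and all intervals cover counting error only. Levels are compared between classes and libraries, not between genes.

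Over all kept cells, Slc7a11 and Sod2 stood far above the other 8 genes in the difference between the libraries. Slc7a11 was at 52.5 CPM in vehicle and 326 CPM in takinib, a log2 ratio of 2.43. Sod2 was at 107 and 579.6 CPM, a log2 ratio of 2.33. They were the 2 of 10 genes past a log2 ratio of 1, where 2.62% of the 15600 genes with at least 50 counts in a library lay above 1 and 3.42% below -1. Above 0 lay 9 of the 10 and 30.5% of all genes. Of the others, 7 were between 0.11 (Srxn1) and 0.87 (Gclm), and Prdx1 was lower in takinib, at -0.44. The median of the 10 was 0.32 beside -0.13 for all genes. These sums mix classes whose shares differed between the libraries, so the rest of the account is by class.

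**Figure D1:**
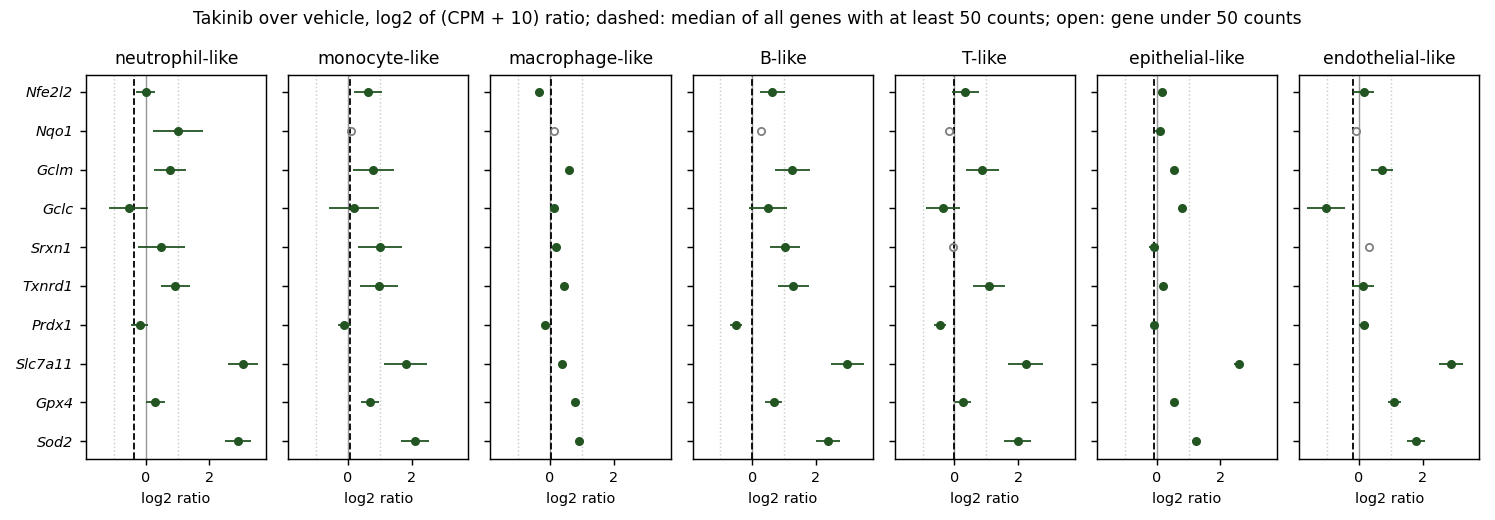
Log2 ratio of takinib over vehicle (x axis) for each of the 10 genes (y axis) in the 7 classes, with 95% counting intervals; the dashed line is the median of all genes with at least 50 counts in a library, and open symbols are genes under that number. Slc7a11 and Sod2 lie past 1 in 6 of 7 classes each, the exception being macrophage-like cells, at 0.36 and 0.90.

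Nfe2l2, the gene of NRF2 itself, differed little and in no common direction. It was at 246 CPM in neutrophil-like cells of both libraries, the highest class of each, a log2 ratio of -0.00 [-0.29, 0.29]. In macrophage-like cells it was lower in takinib, at 176 CPM in vehicle and 137 CPM in takinib (-0.34 [-0.40, -0.28]). It was higher in monocyte-like cells (112 and 179 CPM, 0.63) and B-like cells (83.5 and 135 CPM, 0.63 [0.25, 1.01]) and slightly higher in epithelial-like cells (137 and 155.5 CPM, 0.17). None of the 7 classes passed a ratio of 1 in either direction. The median ratio of all genes in neutrophil-like cells was -0.37, and with that median set to 0 Nfe2l2 was at 0.36 there. The 5 macrophage-like clusters differed in this. In cluster 3, led by Gpnmb (471 vehicle and 1774 takinib cells), the ratio was -0.34 [-0.49, -0.19]. In cluster 2, led by Alox15 (2297 and 598 cells), it was -0.11 [-0.25, 0.03]. It was between 0.05 and 0.14 in the other 3, with intervals that span 0. NRF2 is controlled mainly through the stability of its protein, which RNA counts do not measure.

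**Figure D2:**
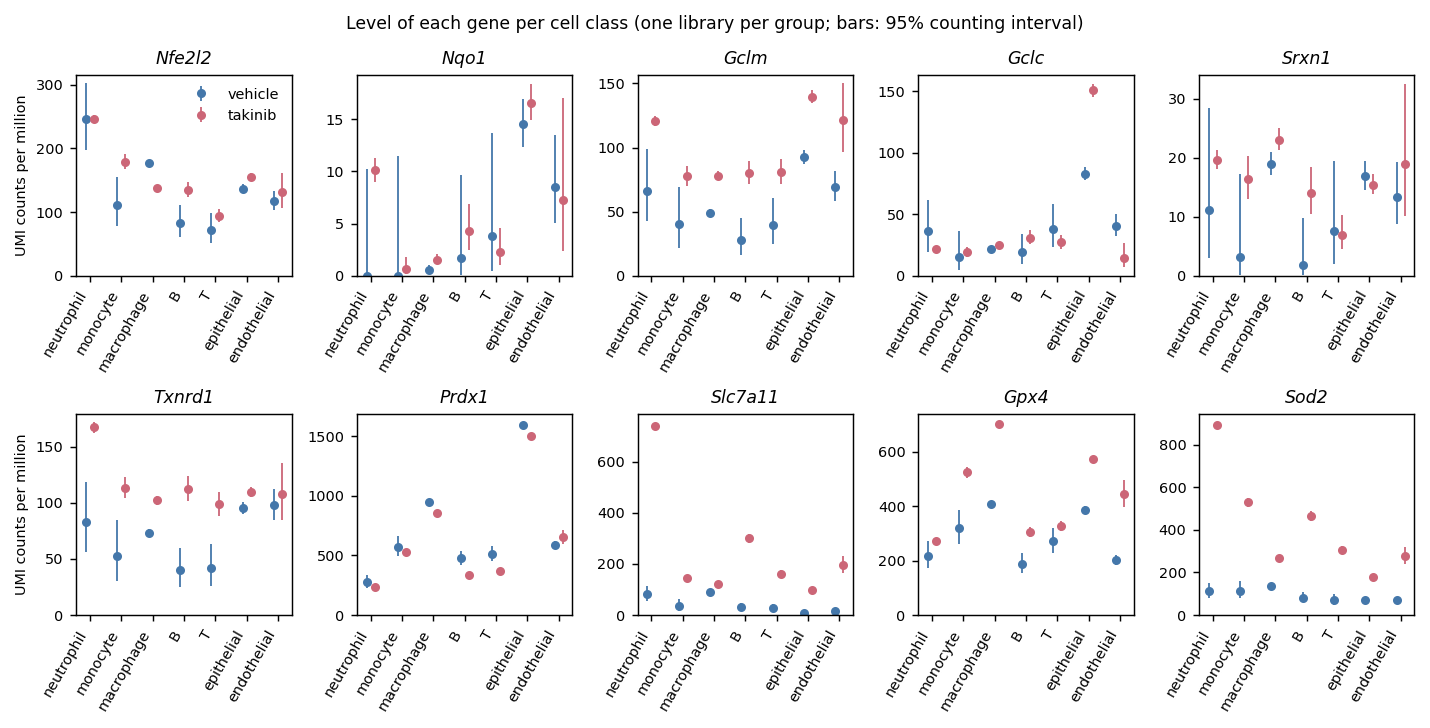
CPM (y axis, from 0) of each gene in the 7 classes of the vehicle and the takinib library, with exact Poisson 95% intervals, 1 library per group. Nfe2l2 overlaps at 246 CPM in neutrophil-like cells, whereas Sod2 there is at 111 and 892 CPM.

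Sod2, which converts superoxide to hydrogen peroxide inside mitochondria, was higher in takinib in all 7 classes, under every alternative setting that gave a value. In neutrophil-like cells it was at 111 CPM in vehicle (40 counts) and 892 CPM in takinib (26254 counts), a log2 ratio of 2.90 [2.49, 3.31]. The vehicle cells of this class had a median mitochondrial share of 14.1% against 0.919% in takinib, and 34 of the 270 were left at most 10%, where the ratio was 2.38 [1.54, 3.22]. With no doublets removed before clustering the class held 41 vehicle cells and the ratio was 2.64. In B-like cells Sod2 was at 81.7 and 465 CPM (2.37), in monocyte-like cells at 115 and 529 CPM (2.11). In T-like cells it was at 70.1 and 306 CPM (1.98). These 4 classes had the largest ratios of this gene. In endothelial-like cells the levels were 72.1 and 276 CPM (1.80 [1.52, 2.08]) and in epithelial-like cells 70.4 and 177 CPM (1.22 [1.12, 1.31]). In macrophage-like cells they were 139 and 268 CPM, a ratio of 0.90 [0.84, 0.96], the smallest of the 7 although macrophage-like cells had the highest vehicle level. The order of the classes also differed between the libraries. Over classes with at least 100 cells, vehicle levels spanned 63.7 CPM (fibroblast-like) to 139 CPM and no class was apart by its interval from the next in that order, whereas in takinib neutrophil-like, monocyte-like and B-like cells were each apart from the class below them.

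Slc7a11 encodes the subunit of the cystine and glutamate exchanger that carries out the transport, and cystine is the limiting source of cysteine for glutathione. In neutrophil-like cells it was at 80.3 CPM (29 counts) in the vehicle library and 739.7 CPM (21778 counts) in the takinib library, a log2 ratio of 3.05 [2.59, 3.52], or 2.41 [1.48, 3.34] with the 34 vehicle cells at most 10% mitochondrial UMIs. B-like cells had 29.6 and 301 CPM (2.97), endothelial-like cells 17.5 and 194 CPM (2.89), and T-like cells 26.5 and 161 CPM (2.23). Epithelial-like cells had 8.27 CPM (94 counts) and 98.6 CPM (2127 counts), a ratio of 2.57 [2.43, 2.72]. Monocyte-like cells had 34.1 and 144.5 CPM (1.81). Macrophage-like cells, which had the highest level in vehicle, 91.5 CPM, had 120.3 CPM in takinib, a ratio of 0.36 [0.28, 0.44]. That vehicle level and the 80.3 CPM of vehicle neutrophil-like cells did not differ beyond their intervals. In takinib the neutrophil-like level was apart from that of the B-like cells next in the order.

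The share of cells with a UMI of these genes followed the levels when each cell was thinned to 1000 UMIs, so that depth was equal. For Sod2 it was 10.7% in vehicle and 48.4% in takinib among neutrophil-like cells, 5.98% and 17.5% of epithelial-like cells, and 11.3% and 19.5% of macrophage-like cells. For Slc7a11 it was 6.67% and 39.8% of neutrophil-like cells, 1.18% and 12.6% of epithelial-like cells, and 6.8% and 9.29% of macrophage-like cells. Without thinning, Slc7a11 was found in 8.15% and 56.7% of neutrophil-like cells and in 4.74% and 35.2% of epithelial-like cells, and Sod2 in 13.3% and 65.0% and in 32.6% and 63.8% of them. No class was taken to lack either gene. In takinib plasma-like cells (202 cells), the lowest in both genes of the takinib classes with at least 100 cells, the thinned shares were 12.4% [8.17, 17.7] for Sod2 and 6.93% [3.84, 11.4] for Slc7a11. The epithelial-like share of Sod2 and the macrophage-like share of Slc7a11 lay inside those intervals.

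Of the named classes, neutrophil-like cells held the highest takinib level of both genes, and their RNA was present in the other takinib classes. The takinib cells of unnamed clusters had more Sod2, at 1086 CPM. Taking S100a8 and S100a9 as the measure, the neutrophil profile made up 26.2% of the UMIs of takinib B-like cells, 18.4% of endothelial-like, 12.4% of T-like, 8.73% of monocyte-like, 7.4% of epithelial-like and 4.53% of macrophage-like cells. A share of that size would carry 64.5% of the Slc7a11 counts of B-like cells, 70.1% of those of endothelial-like cells, 55.5% of those of epithelial-like cells and 27.8% of those of macrophage-like cells. For Sod2 it would carry 50.3%, 59.5%, 37.3% and 15.1% in the same classes, and 14.7% in monocyte-like cells. The measure counts all S100a8 and S100a9 as neutrophil RNA, so a share is too high where a class makes these RNAs itself. Monocyte-like cells already had 2870 CPM of them in vehicle. With this profile subtracted from both libraries, Slc7a11 was at a log2 ratio of 1.98 in B-like, 1.58 in endothelial-like cells and -0.01 in macrophage-like cells, so its difference in macrophage-like cells as a whole was gone. Sod2 was then at 1.82 in B-like, 0.84 in endothelial-like and 0.69 in epithelial-like cells, the last 2 no longer past 1.

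**Figure D3:**
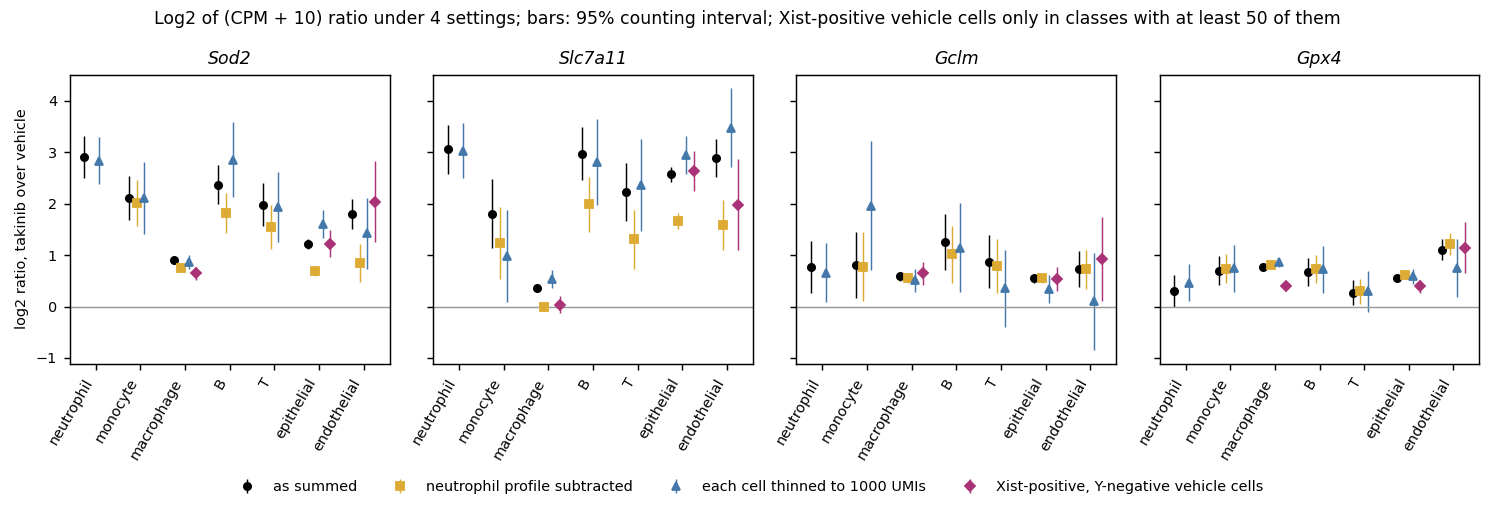
Log2 ratio of takinib over vehicle (y axis) for Sod2, Slc7a11, Gclm and Gpx4 in the 7 classes under 4 settings, with 95% counting intervals: all cells as summed, the neutrophil profile subtracted, each cell thinned to 1000 UMIs, and vehicle cells restricted to those with Xist and without Y-linked UMIs. Subtraction lowers Slc7a11 and Sod2 outside neutrophil-like cells, for example Sod2 in epithelial-like cells from 1.22 to 0.69.

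Within myeloid cells both genes also differed between clusters. Of the 5 neutrophil-like clusters, only cluster 12, led by Ins2, Cxcr2 and Retnlg, had at least 100 cells in both libraries (258 and 2940). There Sod2 was at 114 and 349.6 CPM (1.53) and Slc7a11 at 84.2 and 458 CPM (2.31). The Sod2 ratio was thus 1.53 in that cluster against 2.90 for the whole class. Its vehicle and takinib cells were not alike in markers, with summed S100a8 and S100a9 at 36400 and 137000 CPM. The median ratio of all genes in the cluster was -0.30, with 6.19% above 1 and 12.5% below -1. The takinib library added clusters that vehicle hardly held, cluster 13 led by Ccl4 and Acod1 (3 and 3474 cells) and cluster 14 led by Ccl3 and Chil1 (2 and 4776 cells). Sod2 in takinib was at 228 CPM in cluster 10, which expressed the granule genes Ngp and Ltf of immature neutrophils, at 1044 CPM in cluster 13 and at 1253 CPM in cluster 14. Slc7a11 was at 259.7, 949.7 and 810.1 CPM in the same clusters. The highest Sod2 level of the clusters plotted, 1364 CPM, was in cluster 21, an unnamed cluster led by U90926, Saa3 and Ptges with 12 vehicle and 2378 takinib cells, where Slc7a11 was at 498 CPM. That cluster is outside every class. With each cluster put in the class of its highest marker score, Sod2 in macrophage-like cells was at a ratio of 2.25 in place of 0.90, and Slc7a11 at 1.44 in place of 0.36.

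The 5 macrophage-like clusters each had more Sod2 and more Slc7a11 in takinib. Sod2 ratios ran from 0.53 (cluster 3, led by Gpnmb and Ctsk) to 1.57 (cluster 5, led by Ccl8 and Cd163). For Slc7a11, cluster 5 had 8.43 CPM (4 counts) and 92.3 CPM, a ratio of 2.47, and cluster 4, led by Dcstamp and class II MHC genes, had 157 and 337 CPM (1.05). Cluster 2, led by Alox15 and Apoe, had 41.3 and 80.9 CPM (0.83), the proliferating cluster 0 had 67.9 and 134 CPM (0.89), and cluster 3 had 113 and 129 CPM (0.17). Cluster 4 held the highest macrophage-like level of Slc7a11 in both libraries, and it made up 1567 of the 4688 vehicle but 114 of the 3681 takinib macrophage-like cells. The ratio of 0.36 for the whole class is therefore smaller than the ratio in 4 of its 5 clusters. Summed S100a8 and S100a9 was also higher in takinib in each of the 5, from 392 to 3030 CPM in cluster 2 and from 261 to 7300 CPM in cluster 5. In cluster 3, at 253 and 6430 CPM, the neutrophil profile would carry 35.9 of the 129 CPM of Slc7a11 in takinib, and the rest is below the vehicle level. It would carry 40.7 CPM of the takinib Slc7a11 in cluster 5, 27.2 CPM in cluster 4, 25.8 CPM in cluster 0 and 16.9 CPM in cluster 2, which leaves these 4 above vehicle. For Sod2 it would carry between 20.4 CPM (cluster 2) and 49.1 CPM (cluster 5), which leaves all 5 clusters above vehicle.

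**Figure D4:**
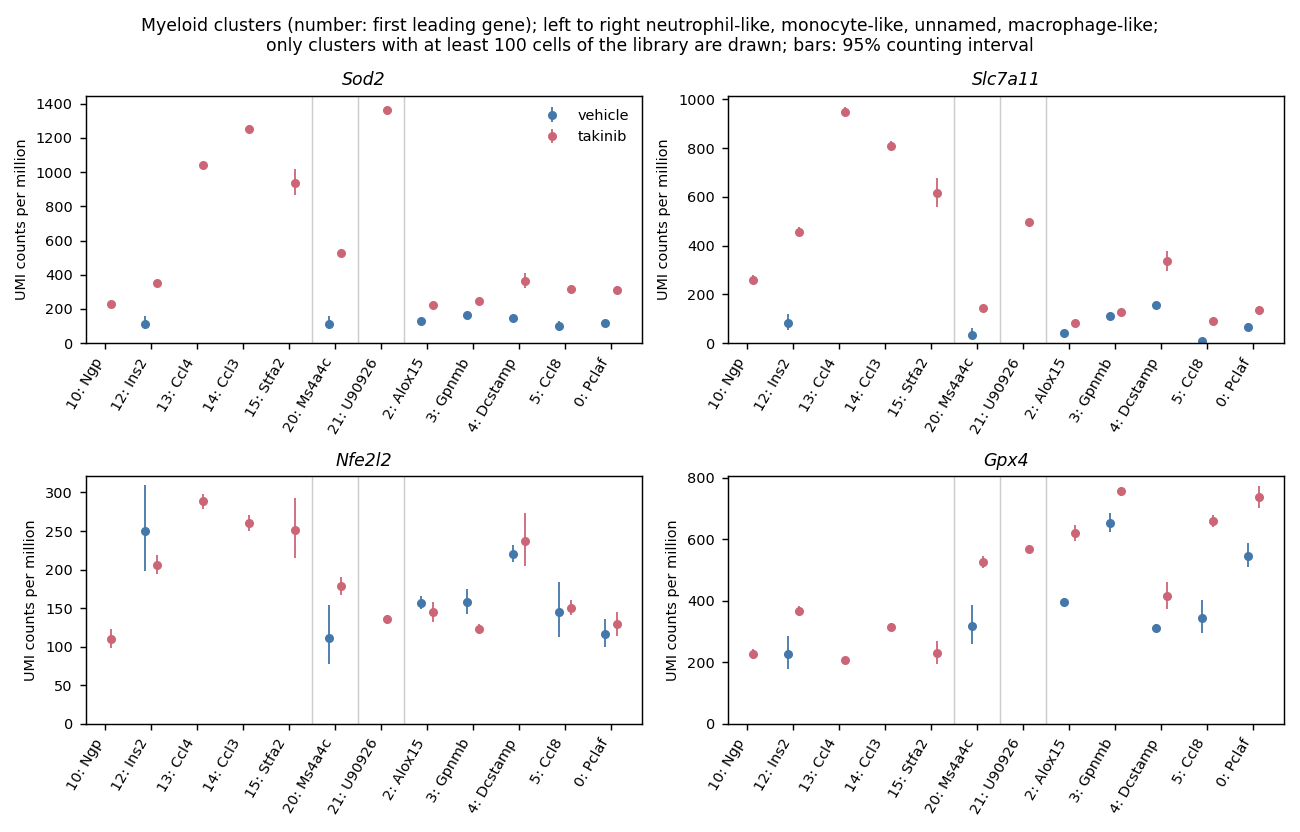
CPM (y axis) of Sod2, Slc7a11, Nfe2l2 and Gpx4 in the myeloid clusters (x axis, each by number and first leading gene) of vehicle and takinib, drawn where a library had at least 100 cells of the cluster, with 95% counting intervals. Takinib clusters 13, 14 and 21 hold the highest Sod2 levels, 1044, 1253 and 1364 CPM.

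Outside the myeloid cells, the epithelial-like clusters 6 (led by Gkn3 and Tff2) and 7 (led by Hmga2 and Cdkn2a) had Slc7a11 at 10.97 and 63.7 CPM (1.81) and at 7.08 and 113 CPM (2.85), vehicle first. Their Sod2 ratios were 0.91 and 1.39. Summed S100a8 and S100a9 in takinib was 5770 CPM in cluster 6 and 12800 CPM in cluster 7. The neutrophil profile would carry 32.2 CPM of the takinib Slc7a11 in cluster 6 and 71.6 CPM in cluster 7, which leaves both above vehicle. Cluster 18, an unnamed cluster led by Dcn and Serpinb2 (259 and 297 cells), had Sod2 at 141.5 and 559 CPM (1.91) and Slc7a11 at 20.7 and 60.3 CPM (1.19). There S100a8 and S100a9 summed to 190 and 10400 CPM, and the neutrophil profile would carry 58.1 CPM of that takinib Slc7a11, nearly all of it, and 70.0 CPM of the Sod2. Fibroblast-like cells were not compared, with 55 takinib cells.

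Gclm and Gclc encode the modifier and the catalytic subunit of glutamate cysteine ligase, the rate-limiting enzyme of glutathione synthesis, and they did not move together. Gclm was higher in takinib in all 7 classes, except that its neutrophil-like ratio was -0.11 when cells over 10% mitochondrial UMIs were left out. The ratios ran from 0.55 in epithelial-like cells (92.4 and 139.6 CPM) to 1.25 in B-like cells (27.8 and 80.3 CPM, the only class past 1). In macrophage-like cells it was at 48.6 and 77.9 CPM (0.58 [0.49, 0.68]) and in neutrophil-like cells at 66.4 and 121 CPM (0.77). Gclc was higher in takinib epithelial-like cells, with 82.9 and 151 CPM (0.79 [0.70, 0.88]). In macrophage-like cells, at 22.1 and 25.03 CPM, the ratio was 0.13 [0.00, 0.25], and in B-like and monocyte-like cells the interval spans 0. It was higher in both large epithelial-like clusters, at 113 and 166 CPM in cluster 6 (0.51) and at 69.4 and 143 CPM in cluster 7 (0.94). In endothelial-like cells Gclc was lower, 40.3 CPM (85 counts) and 14.6 CPM (10 counts), a ratio of -1.03 [-1.62, -0.45] that was -0.41 with no doublets removed. In neutrophil-like cells the levels were 36.0 and 21.7 CPM with an interval that spans 0, whereas within cluster 12 they were 36.1 CPM (12 counts) and 13.96 CPM (78 counts), a ratio of -0.94 [-1.61, -0.28]. Epithelial-like cells had the highest Gclc level of the compared classes in both libraries. The highest Gclm level of any class was in takinib erythroid-like cells, 361 CPM over 553 cells, where Gclc was at 105 CPM. Vehicle held 4 such cells and no comparison was made.

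Txnrd1 encodes the cytosolic thioredoxin reductase, Prdx1 a peroxiredoxin that the thioredoxin system recharges, and Srxn1 sulfiredoxin, which repairs overoxidised peroxiredoxins. Txnrd1 was higher in takinib in all 7 classes, except that its endothelial-like ratio of 0.13 was -0.05 with the neutrophil profile subtracted. It was at 83.1 and 167 CPM in neutrophil-like cells (0.93 [0.47, 1.39]), at 40.0 and 112 CPM in B-like cells (1.29) and at 41.7 and 98.8 CPM in T-like cells (1.07), B-like and T-like cells being the 2 classes past 1. In macrophage-like cells it was at 72.9 and 102 CPM (0.43) and in epithelial-like cells at 95.3 and 109.9 CPM (0.19 [0.09, 0.28]), so the epithelial difference was small. Its vehicle interval in neutrophil-like cells overlapped those of its neighbours, whereas in takinib the neutrophil-like level was apart from all others. Within cluster 12 the levels were 87.2 and 105 CPM (0.24), and takinib cluster 13 had 221 CPM.

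Prdx1 was lower in takinib in 6 of 7 classes, by at most 0.50 on the log2 scale. It was at 478 and 334 CPM in B-like cells (-0.50 [-0.69, -0.32]) and at 509.9 and 366 CPM in T-like cells (-0.47). Summed macrophage markers were also lower in takinib there, at 6530 and 4030 CPM in B-like and 7030 and 2940 CPM in T-like cells. The part of macrophage RNA in these Prdx1 ratios was not tested. In epithelial-like cells, the highest class of Prdx1 in both libraries, it was at 1594 and 1505 CPM (-0.08). In macrophage-like cells it was at 951 and 855 CPM (-0.15). In B-like and T-like cells the sign was kept under all 12 alternative settings, none of which removed macrophage RNA. In each of the other 5 classes at least 1 setting turned the sign. With the median gene of the class set to 0, Prdx1 was at 0.00 in epithelial-like and 0.17 in neutrophil-like cells. Inside classes the clusters differed. In the neutrophil-like cluster 12 it was at 279.6 and 146 CPM (-0.89 [-1.19, -0.59]), and in the macrophage-like clusters it was higher in takinib in cluster 4 (0.19) and cluster 5 (0.55) and lower in clusters 0, 2 and 3. In the epithelial-like clusters it was higher in takinib in cluster 6 (1250 and 1532 CPM, 0.29) and lower in cluster 7 (1845 and 1524 CPM, -0.27).

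Srxn1 was detected at low levels. In macrophage-like cells it was at 18.9 CPM in vehicle and 23.1 CPM in takinib (0.19), and in epithelial-like cells at 16.8 and 15.4 CPM, which were not apart by their intervals. B-like cells had 1 count in vehicle and 53 in takinib (14.0 CPM), a ratio of 8.08-fold with an exact interval from 1.39 to 325. Monocyte-like cells had 1 and 82 counts (16.4 CPM), 5.27-fold with an interval from 0.92 to 211. The 2 log2 ratios of Srxn1 past 1 rest on those single vehicle counts.

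Nqo1, which reduces quinones and is widely used as a marker of NRF2 activity, had most of its epithelial-like counts in a small cluster in both libraries. Cluster 16, led by the stomach genes Gkn2, Gkn1 and Muc5ac, had 22 vehicle and 225 takinib cells. It held 126 of the 165 epithelial-like Nqo1 counts of vehicle (76.4%, exact binomial interval 69.1 to 82.6) and 284 of the 357 of takinib (79.6%, 75.0 to 83.6). The Nqo1 level in the cluster was 557 CPM [464, 663] in the 22 vehicle cells and 441 CPM [392, 496] in takinib. Outside it, the epithelial-like level was 3.5 CPM [2.49, 4.78] in the vehicle and 3.49 CPM [2.74, 4.39] in the takinib library, so no difference was detectable there. The class as a whole was at 14.5 and 16.6 CPM (0.12 [-0.04, 0.28]), and the cluster held 22 of its 1689 vehicle and 225 of its 1906 takinib cells. An Nqo1 UMI was found in 21 of 22 vehicle cells and 52 of 225 takinib cells of the cluster, with median depths of 7193 and 1481 UMIs; the share was not compared for that reason. Cluster 16 was chosen for description after its Nqo1 counts were seen. Neutrophil-like cells had no Nqo1 count in vehicle, which allows up to 8.31 CPM (3 counts) or 10.2 CPM by the exact interval. In takinib they had 297 counts (10.1 CPM [8.97, 11.3]). That is 1.21-fold the first bound, but the interval overlaps the second, so no difference was detectable by exact intervals at this depth. Nqo1 was under 50 counts in both libraries of the other 5 classes.

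Gpx4, which reduces lipid peroxides in membranes with glutathione, was higher in takinib in all 7 classes, except that the T-like ratio of 0.27 was -0.15 at most 10% mitochondrial UMIs and the neutrophil-like ratio -0.19 with each library clustered on its own. Macrophage-like cells had 407 and 702 CPM (0.77 [0.73, 0.81]), epithelial-like cells 388 and 574 CPM (0.55 [0.51, 0.60]), and monocyte-like cells 319.7 and 525 CPM (0.70). Endothelial-like cells had 202 and 445 CPM, a ratio of 1.10 [0.90, 1.31], the only class past 1. The neutrophil-like ratio was 0.30 [-0.00, 0.61]. In takinib, unlike Sod2 and Slc7a11, Gpx4 was lower in neutrophil-like than in macrophage-like cells, and the neutrophil profile would carry 3.51% of its takinib epithelial-like counts. Each of the 5 macrophage-like clusters had more Gpx4 in takinib, with ratios from 0.21 (cluster 3) to 0.92 (cluster 5). With vehicle cells restricted to those with Xist and without Y-linked UMIs, the macrophage-like ratio was 0.41.

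By class, a gene was counted where it had at least 50 counts in a library, and the counts are set beside the share of all such genes. That number could be reached in 1 library alone. In neutrophil-like, B-like, T-like and monocyte-like cells each of the genes above 1 had under 50 vehicle counts and passed through takinib only. The counts therefore describe the genes and do not test them as a set. In neutrophil-like cells 7 of 10 were above 0 (28.1% of all genes), 3 above 1 (4.18%) and none below -1 (15%). Among these 3 is Nqo1, which had no vehicle count and whose difference was not detectable at that depth. The median of the 10 was 0.63, or 0.40 with Nqo1 at its bound, beside -0.37 for all genes. In epithelial-like cells 8 of 10 were above 0 (39.2%), 2 above 1 (2.27%) and none below -1 (1.9%), with a median of 0.37 beside -0.09. In macrophage-like cells 7 of 9 were above 0 (57.2%) and none was above 1 (1.39%) or below -1 (0.961%), with a median of 0.36 beside 0.04. With vehicle cells restricted to those with Xist and without Y-linked UMIs, that median was 0.072 beside 0.075 for all genes. In B-like cells 8 of 9 were above 0 (48.0%), 5 above 1 (7.02%) and none below -1 (1.66%). In T-like cells 6 of 8 were above 0 (48.2%), 3 above 1 (4.69%) and none below -1 (1.24%). In monocyte-like cells 8 of 9 were above 0 (56.2%), 3 above 1 (6.14%) and none below -1 (2.42%). In endothelial-like cells 7 of 8 were above 0 (35.6%), 3 above 1 (3.6%) and Gclc below -1 (5.97%). The medians of these 4 classes were 1.03, 0.60, 0.80 and 0.44, beside -0.02, -0.02, 0.08 and -0.18 for all genes. Slc7a11 and Sod2 make up 12 of the 20 gene and class pairs past 1 in either direction.

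The regulators of NRF2 mostly lay within a log2 ratio of 1. In macrophage-like cells none of the 8 was past 1 in either direction, from Mafg, a small MAF partner (56.8 and 54.7 CPM, -0.05), to Sqstm1, the autophagy receptor that sequesters KEAP1 (150.4 and 222 CPM, 0.53). In epithelial-like cells none of 8 was past 1, from Mafg (91.5 and 54.4 CPM, -0.66) to Maff (26.6 and 42.9 CPM, 0.53). In neutrophil-like cells 2 of 8 were past 1 higher (4.18% of all genes) and none lower (15%). Bach1, a repressor of NRF2 targets, was at 152 and 106 CPM (-0.49) and Sqstm1 at 163 and 567 CPM (1.73).

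Of 15 other NRF2 targets, 5 were above 1 in neutrophil-like cells, 3 among epithelial-like and 1 among macrophage-like cells, and none was below -1. Of all genes 4.18%, 2.27% and 1.39% were above 1 in these classes. The medians of the list were -0.03, 0.08 and 0.26, beside -0.37, -0.09 and 0.04 for all genes. Fth1, the heavy chain of the iron store ferritin, was at 7298 and 58010 CPM in neutrophil-like cells (2.99) and at 2026 and 9948 CPM in epithelial-like cells (2.29). Neutrophil RNA moves with that epithelial value and its part was not tested. The highest of the list in macrophage-like cells was Gstm1, a glutathione transferase (49.1 and 119.8 CPM, 1.14 [1.05, 1.22]). Tkt, transketolase of the pentose phosphate pathway, was the lowest of the 15 in each of the 3 classes. It was at 426 and 298 CPM in macrophage-like (-0.50), 254 and 206 CPM in epithelial-like (-0.29) and 224 and 127 CPM in neutrophil-like cells (-0.77).

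The thioredoxin and peroxiredoxin list of 10 had 2 genes past 1 higher and 3 past -1 in neutrophil-like cells, where 4.18% of all genes were above 1 and 15% below -1. Txnip, which binds and inhibits thioredoxin, was at 1736 and 278 CPM (-2.60), and Prdx5 was at 997 and 3562 CPM (1.83). In epithelial-like cells Txnip was instead the highest, at 163 and 349.9 CPM (1.06), and Txn1, thioredoxin itself, the lowest, at 984 and 636 CPM (-0.62). In macrophage-like cells Txn1 was the highest (1033 and 1528 CPM, 0.56) and Prdx2 the lowest (257 and 185 CPM, -0.45), with none past 1. In neutrophil-like cells Txn1 was at 659 and 1624 CPM (1.29), so Txn1 and Txnip had opposite signs in epithelial-like and neutrophil-like cells. The difference between classes was not tested.

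Of the 9 genes of other glutathione, catalase and superoxide dismutase enzymes, Cat, catalase, was the lowest in epithelial-like cells (64.9 and 29.96 CPM, -0.91) and Msrb1, a methionine sulfoxide reductase, the highest (65.5 and 177 CPM, 1.30). Takinib neutrophil-like cells had 1291 CPM of Msrb1, and the part of neutrophil RNA in its epithelial value was not tested. Sod1, the cytosolic superoxide dismutase, was the lowest in neutrophil-like cells (63.7 and 25.2 CPM, -1.06), opposite in sign to Sod2. Ggt1, which splits glutathione outside the cell, had 0 counts in vehicle and 576 in takinib neutrophil-like cells (19.6 CPM). In macrophage-like cells the list ran from Slc3a2, the partner chain of SLC7A11 (143.5 and 129 CPM, -0.14), to Mgst1 (221 and 293.5 CPM, 0.39), and its 2 ends were both within 1. Slc7a11 was at 0.36 in the same class.

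The 6 genes of the NADPH oxidase, the phagocyte enzyme that makes superoxide, were near level in macrophage-like cells, from Rac2 (293 and 244 CPM, -0.25) to Cybb (695 and 833 CPM, 0.26). In neutrophil-like cells they ran from Ncf1 (1049 and 527 CPM, -0.98) to Ncf4 (94.1 and 293 CPM, 1.54). In epithelial-like cells, which are not known for this enzyme, 5 of 6 were past 1 higher (2.27% of all genes), the highest being Rac2 (18.6 and 84.5 CPM, 1.73) and the lowest Cyba (420.0 and 602.5 CPM, 0.51). These epithelial values move with the S100a8 and S100a9 level given above, whose part in them was not tested.

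Genes with the pattern most like each member were sought among 11100 genes over the 14 profiles of 7 classes in 2 libraries, on log2 of CPM plus 10. The profiles of a library share its depth and its free RNA, so Pearson's r is given as a description only. Sod2 was most like Fpr1 (0.982), a receptor for formyl peptides, and Cd14 (0.962). Slc7a11 was most like Ccl4 (0.967) and Cd14 (0.966), and r between Sod2 and Slc7a11 was 0.938. Gclm was most like Zbtb42 (0.940) and Rab2a (0.935), and Txnrd1 most like Gng12 (0.968) and Slc44a1 (0.931), with r of 0.898 between Gclm and Txnrd1. For Nfe2l2 the nearest genes were Gcnt2 (0.91) and Smim3 (0.906), and its r with Nqo1 was 0.0708 and with Gclc 0.0525.

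In build GRCm38 with the GENCODE M21 annotation, Slc7a11 spans chr3:49892526-50443614 on the minus strand with Gm37854 on the opposite strand, and Sod2 spans chr17:13006846-13040063 on the plus strand. Gclm at chr3:122245557-122270732 has Gm17494 on the opposite strand, and Txnrd1 at chr10:82833951-82897712 overlaps Eid3 on its own strand and Gm38560 on the other. Whether counting used strand is not given in the sources used here, so reads of these pairs cannot be told apart. Nfe2l2 (chr2:75675513-75704641), Nqo1 (chr8:107388225-107403206), Gclc (chr9:77754535-77794485), Srxn1 (chr2:152105516-152111376), Prdx1 (chr4:116685544-116700822) and Gpx4 (chr10:80047166-80056439) overlap no other annotated gene that is listed in the deposited data. Annotated genes not listed there were not searched.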

How the data were processed

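The deposited matrices hold UMI counts, not normalized, made by the authors with Cell Ranger 4 (vehicle) and 6.1.1 (takinib), per the file headers. The submitters' processing notes list Cell Ranger 2.1.1, bcl2fastq, STAR 2.0.4b, Subread, featureCounts 1.45 and build mm10; which was used for which step is not given in the sources used here. The vehicle matrix lists 704261 barcodes and the takinib matrix 34158, none under 500 UMIs, so barcodes were filtered before deposit in takinib and not in vehicle. The same filters were applied here to both.

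Scrublet marked 3.18% of 9872 vehicle barcodes (314 removed). In takinib it marked 0.00373% of 26790 and had not worked, so the highest 6% of scores were removed (1607). Kept cells hold 42000538 vehicle and 119726977 takinib UMIs. Both libraries were clustered together without batch correction (scanpy 1.11.5, 2000 variable genes, 30 components, 15 neighbours, Leiden resolution 1). Clusters were named from lists of markers; 4 settings of the naming (at least 3 markers, in 10% of cells, scaled level 0.2, next class under 0.75 of the best) decide what stays unnamed. Counts were summed per class and library, scaled to CPM, and compared as log2 of CPM plus 10 for genes with at least 50 counts in a library. Intervals (95%) are exact Poisson, exact Clopper-Pearson or, for log2 ratios, from the Poisson variance. The log2 ratio and its interval were tested on simulated counts of macrophage-like, epithelial-like and neutrophil-like cells. The other steps had no test on simulated data. Groups came from the labels, with 1 library each, so no test was run.

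The 10 genes were taken by symbol, all of them are reported in every class with at least 100 cells per library, and of each pathway list the highest and lowest gene are named in macrophage-like, epithelial-like and neutrophil-like cells; fibroblast-like cells, also in that rule, had too few takinib cells. The genes and lists were chosen with earlier results of these data known. Alternatives tried were pseudocounts of 1 and 50, centring on the median gene, no doublet removal, stricter depth, at most 10% mitochondrial UMIs, thinning to 1000 UMIs, Leiden resolution 0.5, separate clustering, naming by highest score, Xist-positive vehicle cells and subtraction of the neutrophil profile; ratios within clusters were added after seeing the data. Sequences come from a RefSeq promoter table. No promoter was matched for Gclc, and no protein sequence is shown.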

Additional observations from a re-analysis of the deposited data

Results flagged for a closer look

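Nfe2l2 differed between classes in the direction of its difference between the libraries. The log2 ratio of takinib over vehicle was 0.63 in monocyte-like cells (36 vehicle counts) and -0.34 in macrophage-like cells, with counting intervals on opposite sides of 0. Gclc showed the same kind of split, with 0.79 in epithelial-like cells and -1.03 in endothelial-like cells, the latter from 10 takinib counts. With 1 library per group neither difference between classes was tested.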

How the results depend on the processing

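The median ratio was taken over those of the 10 genes with at least 50 counts in a library. It stayed above 0 in macrophage-like, epithelial-like and neutrophil-like cells under every alternative with at least 20 cells in each library. In epithelial-like cells (0.37) it was 0.45 with the median gene at 0, 0.26 at most 10% mitochondrial UMIs, 0.50 with thinned cells and 0.46 with Xist-positive vehicle cells only. In macrophage-like cells (0.36) it was 0.27 with a pseudocount of 50, 0.44 with no doublets removed, 0.44 at Leiden resolution 0.5, 0.20 with the neutrophil profile subtracted and 0.072 with Xist-positive vehicle cells only, where all genes had a median of 0.075. The cause was not tested for any of these. In neutrophil-like cells (0.63) it ran from 0.25 to 1.00. The medians of the single genes' lower and upper bounds there were 0.11 and 1.26, which is not an interval of the median ratio.

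Of the 20 gene and class pairs past 1 in either direction, all that gave a value kept their sign under each of the 12 alternatives. Past 1 stayed 20 with a pseudocount of 1, 11 with 50, 16 with no doublets removed, 16 at most 10% mitochondrial UMIs, 15 with thinning, 13 of 17 with separate clustering, 12 of 14 with Xist-positive vehicle cells and 13 of 17 with the neutrophil profile subtracted. Nfe2l2 in neutrophil-like cells, at -0.00, was above 0 under 4 alternatives. Not counted, for fewer than 20 vehicle cells, were neutrophil-like cells at 2000 UMIs and 1000 genes (9 cells, median 0.745) and neutrophil-like (10 cells, 1.335) and monocyte-like cells (7 cells, 1.399) with Xist-positive vehicle cells. No class of monocyte-like cells formed in both libraries at resolution 0.5 or with separate clustering. Vehicle neutrophil-like (361219 UMIs) and monocyte-like cells (322210) limit the depth. No paired analysis was possible because each group has 1 library.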
